A study of Mus musculus with 12 samples.

Results

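The genes described here encode 10 cytokine receptor chains of the mouse: Il1r1, Il2ra, Il2rg, Il4ra, Il6ra, Il7r, Il10ra, Il21r, Ifngr1 and Ifnar1. They were chosen by name, with earlier results of these data known. Every probe set that the array annotation gives to 1 of them and to no other gene was used. The annotation held 18 such probe sets, out of 45101 on the array, for 9 of the 10 genes. It listed none for Il2rg, which was not analysed here. A filter on low values, a log2 value above 4 on at least 3 of the 12 arrays, was passed by 14 of the 18 probe sets. Each of the 9 genes kept at least 1 probe set and so was among the 9293 genes tested. Il1r1 passed through 9 arrays, since its 3 values in unstimulated control cells lay below 4.

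RNA was measured on 12 one-colour Affymetrix arrays. The cells were B220-positive splenic B cells sorted from mice of mixed 129/Sv-C57BL/6 background. Cells labelled Foxp1flox/del are called deleted and cells labelled Foxp1wt/flox control, so both genotypes carry a floxed Foxp1 allele. Cells of each genotype were kept for 4 h either unstimulated or with what the labels call IgM, and each of the 4 groups had 3 arrays. The labels do not give a Cre line, the age or sex of the mice or whether each replicate is a separate animal, so the p-values here cover the spread between these arrays. Xist, the RNA that females make from their inactive X chromosome, was looked at after its values were seen. It read 2.23 to 2.44 in replicate 1 of the 4 groups and 7.67 to 11.75 in replicates 2 and 3, so each group held RNA from both sexes in the same order of replicate numbers. The 7.67 was replicate 3 of the deleted cells with IgM, and the other arrays of replicates 2 and 3 read 10.75 or more.

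Values were log2 expression levels made by GCRMA, with a floor of 2.23 shared by all arrays. A gene close to that floor has no exact level, and a change from it is compressed. Levels are compared only within a probe set. In these bulk samples, fewer cells of a type and less RNA per cell cannot be told apart. Differences are in log2 units with standard errors (SE), and adjusted p-values come from limma with Benjamini-Hochberg adjustment over the 9293 genes, with a threshold of 0.05. A difference past that threshold is said to be called. Where a fit that pairs arrays by their replicate number, the blocked fit, changed a call, its adjusted p is given too.

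Of 12 pan-B marker genes, 11 were measured and all 11 lay above 4 in every group; their summed linear level was 96071 to 103580 without IgM and 53891 to 65277 with it. The 8 tested Foxp1 probe sets did not separate the genotypes, with differences of -0.29 to 0.13 without IgM and a lowest adjusted p of 1. It was not known here which exons those probes target or which exons were removed, so they do not check the genotype labels. IgM raised Egr1, an immediate early gene of antigen receptor signalling, by 2.22 in control and 3.04 in deleted cells. It raised Nr4a1, Myc and Cd69, 3 other genes of B cell activation, by 1.52 to 1.90 in control and 2.05 to 2.92 in deleted cells. Without IgM these genes read lower in deleted cells, Nr4a1 by -1.77 (limma adjusted p = 0.000685). Egr1, Cd69 and Myc differed by -0.86, -0.90 and -0.93, which limma did not call. Nor did it call an interaction for any of them (adjusted p = 0.35 to 0.951), so a stronger response of deleted cells was not shown. Arrays of a group correlated at 0.951 or more, except replicate 3 of the deleted cells with IgM, which correlated at 0.817 and 0.865 with the other two of its group. Results that rest on that array are also given without it.

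Cytokine receptors are cell surface proteins, many of them built from a chain that binds the cytokine and a partner chain. Some partner chains are shared by several receptors. Most of the chains named here belong to the type I and type II families, which have no enzyme activity of their own. They hold Jak kinases at their inner ends, and these kinases phosphorylate Stat transcription factors after the cytokine has bound. Il1r1 belongs to another family, which signals through Myd88 and Irak proteins to NF-kappaB. In B cells these receptors set survival, proliferation, class switching and plasma cell formation. Mouse B cell precursors depend on the IL-7 receptor, whereas mature B cells respond to IL-4 and IL-21.

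Without IgM, 1 of the 9 genes differed between deleted and control cells, and 2.85% of all 9293 genes did. With IgM, 0 of 9 differed by limma, and 1.72% of all genes did. At an unadjusted p under 0.05 the members counted 6 and 3, beside 10.6% and 13.7% of all genes. In the blocked fit they counted 5 and 1, beside 6.89% and 6.76% of all genes. IgM changed 5 of 9 genes in control cells, or 55.6%, beside 20.7% of all genes. It also changed 5 of 9 in deleted cells, beside 19.0% of all genes. Because the members were chosen with earlier results of these data known, their shares describe the list and do not test it. The test of whether the genotype difference itself depended on IgM, the interaction, called 1 of 9 members and 0.108% of all genes. Median differences of the 9 genes were -0.02 for genotype without IgM, 0.56 with IgM, -0.19 for IgM in control cells and 0.44 in deleted cells. The same medians over all genes were 0.0025, 0.08, -0.05 and -0.08. Without deleted IgM replicate 3 the member medians were 0.15 for genotype with IgM and 0.01 for IgM in deleted cells. Over all genes they were then 0.03 and -0.06. The 3 members with an unadjusted p under 0.05 for genotype with IgM were all higher in deleted cells. Without that array there were 4 such members, 1 higher and 3 lower, beside 13.2% of all genes.

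**Figure D1:**
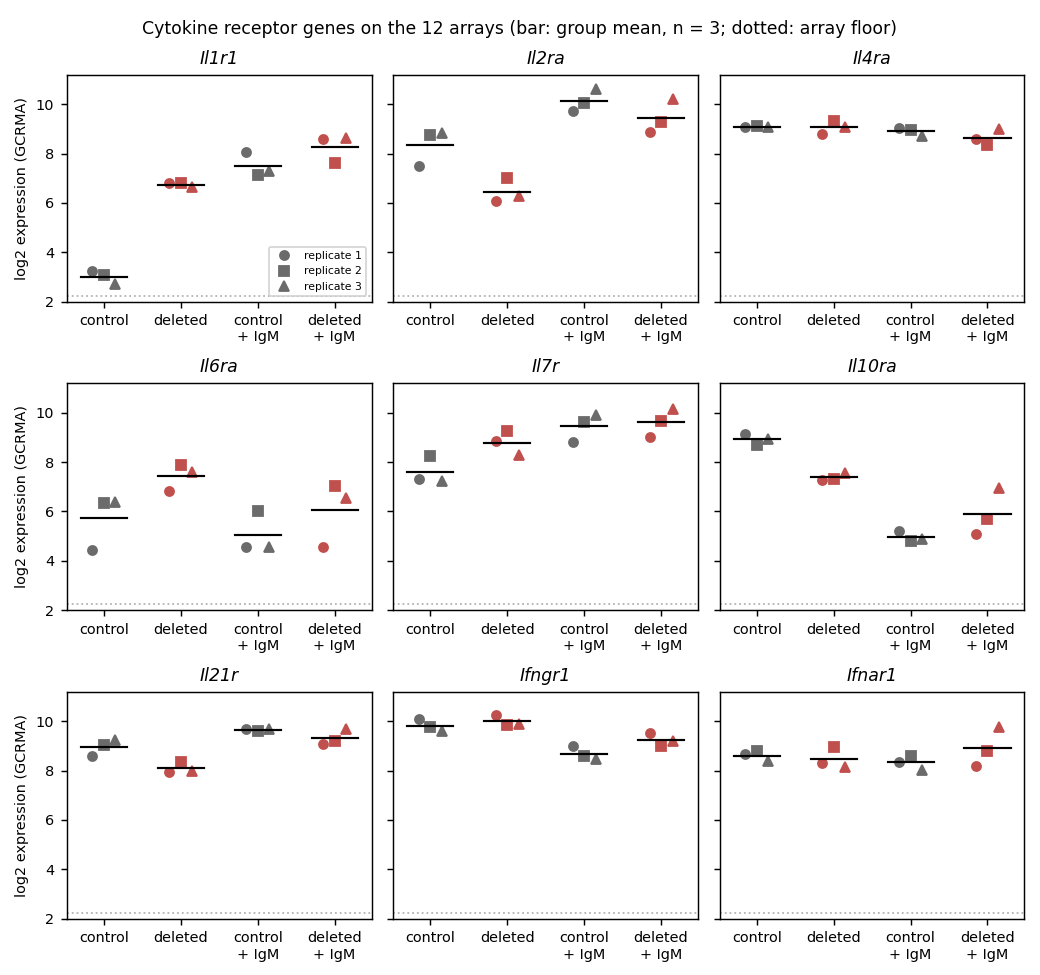
Log2 expression (GCRMA) of the 9 measured cytokine receptor genes on each of the 12 arrays, by genotype and stimulation. Points are arrays (circle, square and triangle for replicates 1, 2 and 3), bars are group means, and the dotted line is the array floor of 2.23. Il1r1 lies close to the floor in unstimulated control cells and at 6.63 or more on the other 9 arrays.

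Il1r1, the signalling receptor for IL-1, was close to the floor in unstimulated control cells and clearly measured in the other 3 groups. Unstimulated control replicates 1, 2 and 3 read 3.23, 3.07 and 2.72, for a mean of 3.01 ± 0.26 (SD, n = 3). Unstimulated deleted cells read 6.79, 6.80 and 6.63, for a mean of 6.74 ± 0.09 (SD, n = 3). Every deleted array lay above every control array. The difference was 3.73 (SE 0.32, adjusted p = 0.000134), and the replicate pairs differed by 3.56, 3.72 and 3.91. The call held in all 24 alternative analyses, with differences of 3.59 to 3.84.

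IgM brought Il1r1 up in both genotypes. Control cells with IgM read 8.07, 7.13 and 7.31, and deleted cells with IgM 8.61, 7.62 and 8.61. The 2 genotypes overlapped here, at 7.62 in a deleted and 8.07 in a control replicate. IgM raised Il1r1 by 4.49 in control cells (SE 0.32, adjusted p = 3.32e-05) and by 1.54 in deleted cells (SE 0.32, adjusted p = 0.0074). The call in deleted cells held in 20 of 24 alternatives. It was lost with only the compared groups fitted (adjusted p = 0.0514) and when all arrays of replicate 1, 2 or 3 were left out (0.0868, 0.0641 and 0.0612). With IgM the genotype difference was 0.78 (95% interval 0.07 to 1.48, adjusted p = 0.312) and was not called. The order of group means was therefore unstimulated control, unstimulated deleted, control with IgM and deleted with IgM, and the last pair did not differ beyond the test.

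The interaction for Il1r1 was -2.95 (SE 0.45, adjusted p = 0.0439, and 0.0207 in the blocked fit), with -3.01, -3.24 and -2.61 in the 3 replicates. It was 1 of 10 genes called in this test, and all 10 had negative values. The size was -3.14 to -2.62 over 23 alternatives, but only 4 of the 23 kept the call, with adjusted p from 0.0207 to 0.977. Leaving out any array other than deleted IgM replicate 3 took the adjusted p to between 0.0583 and 0.191, and without that array it was 0.0304. Because control values sat near the floor, the size of both the genotype difference and the interaction is not exact. The other Il1r1 probe set lay at the floor of 2.23 on all 12 arrays.

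Markers of other cell types also differed between the genotypes, and their values stand beside the Il1r1 result. The summed linear level of the 10 measured neutrophil markers, out of 12 listed, was 343 to 2714 in unstimulated control and 3374 to 23129 in unstimulated deleted cells. Mpo, a granule enzyme gene and the highest of that list, read 7.72 to 10.24 and 11.15 to 13.06 there in log2, so it weighs most in the sum. Macrophage and monocyte markers, 14 of 15 measured, summed to 274 to 653 and 862 to 3351. Mast cell and basophil markers, 6 of 8 measured, summed to 78 to 296 and 532 to 1766. Dendritic cell markers, 9 of 10 measured, summed to 1114 to 1533 and 2427 to 3625. Bst2, the highest gene of that list, read 9.38 to 9.74 in unstimulated control and 10.85 to 11.33 in unstimulated deleted cells. Siglech and Cd209a were also higher there without overlap, while Ccr9, Klk1, Flt3 and Itgax overlapped. Zbtb46 of that list went the other way, at 6.07 to 6.66 in control and 4.62 to 5.10 in deleted cells. Between the unstimulated deleted replicates the sums varied 6.85-fold for neutrophil, 3.89-fold for macrophage, 3.32-fold for mast cell and 1.49-fold for dendritic cell markers. With IgM the neutrophil sum was 244 to 1523 in control and 1768 to 13452 in deleted cells. Among the detected markers, in log2, the granule protease genes Elane and Prtn3 read 5.24 to 7.41 and 5.54 to 7.98 in unstimulated control and 8.0 to 10.90 and 9.52 to 12.09 in unstimulated deleted cells. Lyz2, a lysozyme of myeloid cells, read 6.34 to 8.52 and 9.08 to 11.29, and Csf1r, the macrophage growth factor receptor, 2.54 to 5.42 and 6.69 to 8.36. The control and deleted values of these 4 genes did not overlap, nor did those of Mpo, Cd14 and Ccr2, also higher in deleted cells. Those of S100a8, S100a9, Ltf, Camp, Ngp, Cd68 and Vcam1 overlapped. Adgre1 of the macrophage list went the other way without overlap, at 5.61 to 6.27 in unstimulated control and 4.15 to 4.97 in unstimulated deleted cells. Cxcr2 of the neutrophil list and C1qa, C1qb, C1qc, Fcgr1 and Mertk of the macrophage list lay at or below 4 in every group. The part of these cells in the Il1r1 difference was not tested.

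**Figure D2:**
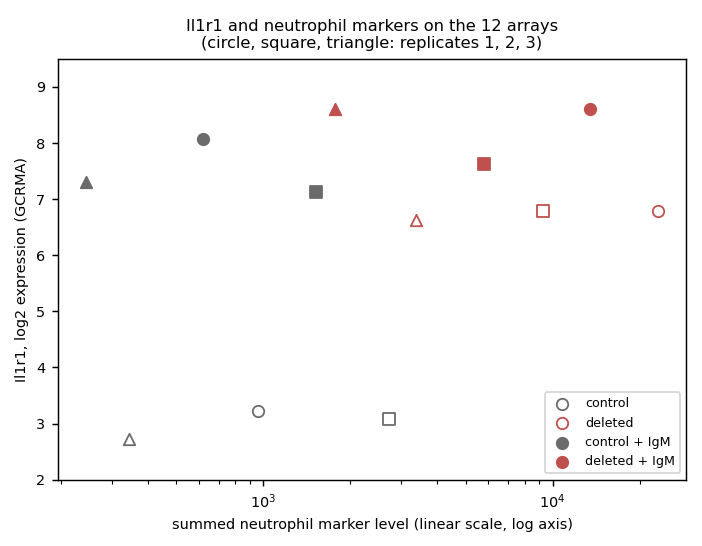
Il1r1 log2 expression on each of the 12 arrays against the summed linear level of 10 neutrophil markers (log axis). Open symbols are unstimulated and filled symbols IgM-treated cells, grey is control and red deleted. Neutrophil sums were 343 to 2714 on unstimulated control and 3374 to 23129 on unstimulated deleted arrays. With IgM they were 244 to 1523 on control and 1768 to 13452 on deleted arrays. Mpo, Elane and Prtn3 of the list did not overlap between the unstimulated genotypes, while S100a8, S100a9, Ltf, Camp and Ngp did. The part of neutrophils in the Il1r1 values was not tested.

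The RefSeq promoter table (GRCm38.p6) gave 2 start sites for Il1r1. The 30 bases before each are shown because Il1r1 was the member called for genotype and interaction. They lie at chr1:40225050-40225079 and chr1:40266556-40266585, both on the plus strand. Both lie within the RefSeq span of the gene, which begins at chr1:40222480.

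Il1r1, upstream start: acacaggcgtcatcaggagcccactttctc
Il1r1, downstream start: ccgagcccgaggctgaggacgctggcctgc

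These pieces had a G and C content of 56.7% and 76.7%. The probe sets do not tell which start the measured RNA used. For all members with an entry, 10 windows of 250 bases before a start for 9 genes, both strands were searched for 3 motifs. They were the forkhead motif TGTTTAC, the STAT motif TTCNNNGAA and the AP-1 motif TGANTCA. Among all 32851 promoter windows of that length, 3.17% held the forkhead, 7.02% the STAT and 6.75% the AP-1 motif. Of the 10 member windows, 2 held a match, those of Il7r and Il21r, and the matches overlapped no other motif searched. A match describes the letters and is not a measured binding site.

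Il2ra encodes CD25, the alpha chain that gives the IL-2 receptor its high affinity. It read lower in deleted than in control cells before stimulation, and IgM raised it in both. Control replicates 1, 2 and 3 read 7.49, 8.76 and 8.83 without IgM. Deleted replicates read 6.06, 7.02 and 6.27. The highest deleted value lay below the lowest control value. The difference was -1.91 (SE 0.45, adjusted p = 0.0521), just outside the threshold. The blocked fit gave an adjusted p of 0.00557, and 5 of 24 alternatives called it, over a range of adjusted p from 0.00557 to 0.559. Without deleted IgM replicate 3 the adjusted p was 0.0223, without deleted IgM replicate 1 it was 0.0494, and without unstimulated control replicate 1 it was 0.0262 with a difference of -2.34.

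The second Il2ra probe set gave nearly the same size with less spread. It read 7.21, 7.82 and 7.57 in control and 5.49, 6.21 and 5.08 in deleted cells without IgM. In a fit of all 19187 passing probe sets its difference was -1.94 (SE 0.31), with an adjusted p of 0.00845 over those probe sets. In that fit 2 of 14 member probe sets were called for genotype without IgM, beside 2.03% of all. For genotype with IgM 0 of 14 were called, beside 1.19% of all. There 4 of the 14 had an unadjusted p under 0.05, beside 2299 of all 19187 probe sets. IgM called 7 of 14 in control cells beside 18.2% of all, and 5 of 14 in deleted cells beside 17.0%. The interaction called 1 of 14, an Il1r1 probe set, beside 0.0990% of all.

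With IgM, Il2ra read 9.74, 10.06 and 10.61 in control and 8.88, 9.29 and 10.21 in deleted cells. The 2 groups overlapped only through deleted replicate 3. Each IgM value was higher than each unstimulated value of the same genotype. IgM raised it by 1.78 in control cells (SE 0.45, adjusted p = 0.0178) and by 3.01 in deleted cells (SE 0.45, adjusted p = 0.00136). The control response was no longer called without control IgM replicate 3 (1.54, adjusted p = 0.0768) or without unstimulated control replicate 1 (1.34, adjusted p = 0.0697). It was also lost with no filter on low values and when all arrays of replicate 1 or 2 were left out. The call in deleted cells held in 23 of 24 alternatives and was lost without all arrays of replicate 2 (adjusted p = 0.057). With IgM the genotype difference of Il2ra was -0.68 (95% interval -1.68 to 0.32, adjusted p = 0.513), and -1.05 without deleted IgM replicate 3 (adjusted p = 0.343). The second probe set read lower in deleted cells with IgM without overlap, by -0.80, also not called (adjusted p = 0.342 over probe sets). For the tested probe set the interaction was 1.23 (adjusted p = 0.951), so the responses were not shown to differ between genotypes.

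The 250 bases before Il2ra (chr2:11642542-11642791, plus strand, GRCm38.p6) are printed because both its probe sets moved alike. None of the 3 motifs was found in them, which says nothing about the factors. Their G and C content was 42.4%.

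Il2ra: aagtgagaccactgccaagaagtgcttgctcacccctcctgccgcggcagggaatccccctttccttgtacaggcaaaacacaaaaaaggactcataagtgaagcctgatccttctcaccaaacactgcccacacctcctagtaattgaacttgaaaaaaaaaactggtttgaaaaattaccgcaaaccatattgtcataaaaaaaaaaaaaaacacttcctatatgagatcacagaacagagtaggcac

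Il21r, the receptor chain for IL-21, a T cell cytokine that drives plasma cell formation, followed the order of Il2ra over a smaller range. It read 8.59, 9.02 and 9.23 in control and 7.95, 8.34 and 8.0 in deleted cells without IgM. Every deleted value lay below every control value. The difference was -0.85 (SE 0.24, adjusted p = 0.101), which was not called, and the blocked fit gave an adjusted p of 0.0315. Without deleted IgM replicate 3 the adjusted p was 0.024, and over the alternatives it ranged from 0.024 to 0.808.

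With IgM, Il21r read 9.68, 9.59 and 9.69 in control and 9.06, 9.20 and 9.70 in deleted cells. The control values were close together, and deleted replicate 3 reached them while the other two stayed below. IgM raised Il21r in deleted cells by 1.22 (SE 0.24, adjusted p = 0.00517). That call held in 21 of 24 alternatives, and the adjusted p over all 24 ranged from 0.00149 to 0.114. It was lost with only the compared groups fitted and when all arrays of replicate 1 or 2 were left out. The control difference was 0.71 (SE 0.24, adjusted p = 0.0569), 0.0195 in the blocked fit and 0.0135 without deleted IgM replicate 3, within a range of 0.0135 to 0.406. The interaction was 0.52 (95% interval -0.22 to 1.25, adjusted p = 0.951).

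The Il21r window held the forkhead letters in the sense direction, at position -38 relative to its start site. The RefSeq span of the gene begins further upstream, at chr7:125603252, so the match lies within that span. These 30 bases around the match (chr7:125603381-125603410, plus strand, GRCm38.p6) are shown because Foxp1 is itself a forkhead protein, and the capitals mark the match. Binding there was not measured.

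Il21r: ggcggggcacTGTTTACcacatcccctccc

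Il7r encodes the alpha chain of the receptor for IL-7, the growth factor of B cell precursors. Without IgM it read 7.32, 8.25 and 7.24 in control and 8.83, 9.24 and 8.29 in deleted cells. All deleted values were above all control values, but deleted replicate 3 exceeded control replicate 2 by little. The difference was 1.19 (SE 0.41, adjusted p = 0.228) and was not called, nor was it in the blocked fit (adjusted p = 0.079) or in any of 24 alternatives. With IgM the control arrays read 8.83, 9.63 and 9.89 and the deleted arrays 9.01, 9.68 and 10.15, side by side within each replicate.

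IgM raised Il7r in control cells by 1.85 (SE 0.41, adjusted p = 0.00919), with rises of 1.51, 1.38 and 2.65 in the 3 replicates. The call held in 21 of 24 alternatives and was lost when all arrays of replicate 1, 2 or 3 were left out (adjusted p = 0.0566, 0.0959 and 0.05). In deleted cells, which started higher, the difference was 0.83 (95% interval -0.08 to 1.73, adjusted p = 0.191). The interaction was -1.02 (adjusted p = 0.951), so a smaller response in deleted cells was not shown. A second Il7r probe set, at a lower level, gave 2.11 for IgM in control cells (adjusted p = 0.0493 over probe sets) and 1.40 for genotype without IgM (adjusted p = 0.556).

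Early B progenitor markers stand beside the Il7r values, since such cells carry this receptor. The 11 measured of 12 listed markers summed to 1948 to 2549 in unstimulated control and 3905 to 6021 in unstimulated deleted cells. Sox4 and Cd93, the highest genes of that list, weigh most in the sum. In log2 they read 9.98 to 10.33 and 8.79 to 9.17 in unstimulated control cells. In unstimulated deleted cells they read 11.13 to 11.64 and 9.20 to 10.01. Flt3 overlapped, at 6.53 to 7.38 in control and 6.95 to 7.65 in deleted cells. Dntt, which adds nucleotides to immunoglobulin gene joints, reached 2.41 at most in control and 5.15 to 6.17 in deleted cells without IgM. Rag2 and Erg lay at or below 4 in every group. With IgM the sums were 1378 to 1911 in control and 3622 to 4680 in deleted cells. T cell markers, 14 of 14 measured, summed to 163 to 370 in control and 297 to 762 in deleted cells without IgM, with Cd4, Cd8a, Cd8b1, Thy1, Zap70 and Gata3 at or below 4 in all groups. The detected T cell genes Lat, Cd28 and Cd3g read 3.45 to 4.25, 4.75 to 5.99 and 4.27 to 5.41 in control and 5.03 to 6.52, 5.91 to 7.20 and 5.27 to 6.41 in deleted cells without IgM. The part of such cells in the Il7r values was not tested.

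The Il7r window held the STAT letters, at position -142 relative to its start site. The 185 bases of the window that lie before the gene (chr15:9529942-9530126, minus strand, GRCm38.p6) are shown with the match in capitals. Stat5 is the factor known to act below this receptor, and its binding was not measured here.

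Il7r: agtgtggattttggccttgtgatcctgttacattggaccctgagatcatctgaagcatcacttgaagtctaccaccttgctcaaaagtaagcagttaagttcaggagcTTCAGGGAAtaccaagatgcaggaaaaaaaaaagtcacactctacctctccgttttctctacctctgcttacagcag

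Il4ra, the binding chain for IL-4 and IL-13, showed no called difference in any of the 5 comparisons. It read 9.07, 9.10 and 9.07 in control and 8.78, 9.33 and 9.06 in deleted cells without IgM. Control cells with IgM read 9.03, 8.93 and 8.72, and deleted cells with IgM 8.58, 8.33 and 8.98. The genotype groups overlapped without IgM. The genotype difference there was -0.02 (95% interval -0.51 to 0.46, adjusted p = 1). IgM gave -0.19 in control cells (95% interval -0.67 to 0.30) and -0.43 in deleted cells (95% interval -0.91 to 0.06, adjusted p = 0.205). Without deleted IgM replicate 3 the difference by IgM in deleted cells was -0.60 with an adjusted p of 0.0381, within a range of 0.0381 to 0.828 over the alternatives. A second Il4ra probe set showed no call either, and the third lay at the floor on all arrays.

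Il6ra encodes the alpha chain of the IL-6 receptor, which signals through the shared chain Il6st. Its replicates were uneven, with an SD of 0.55 to 1.29 in the 4 groups. Without IgM it read 4.45, 6.36 and 6.37 in control and 6.83, 7.90 and 7.58 in deleted cells. With IgM it read 4.55, 6.03 and 4.57 in control and 4.58, 7.02 and 6.53 in deleted cells. Replicate 1 was the lowest of its group in all 4 groups, and the genotypes separated without IgM but overlapped with it.

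The Il6ra genotype difference without IgM was 1.71 (SE 0.71, 95% interval 0.14 to 3.28, adjusted p = 0.386), with 2.38, 1.54 and 1.21 in the 3 replicates. It was not called, and the blocked fit, which takes out what replicates share, gave an adjusted p of 0.025; over the alternatives it ranged from 0.025 to 1. IgM gave -1.40 in deleted cells (adjusted p = 0.201, and 0.0165 in the blocked fit, within a range of 0.0165 to 0.469). A second Il6ra probe set, above 4 on 8 of 12 arrays, gave 1.25 for genotype without IgM (adjusted p = 0.606 over probe sets). Neutrophils and macrophages also carry this receptor, and the sums of their markers given beside Il1r1 apply here too, where their part was not tested either.

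Il10ra, the binding chain for the anti-inflammatory cytokine IL-10, fell with IgM in both genotypes. Unstimulated control cells read 9.15, 8.68 and 8.91 and unstimulated deleted cells 7.28, 7.30 and 7.56. Control cells with IgM read 5.21, 4.82 and 4.89, and deleted cells with IgM 5.08, 5.69 and 6.97. The unstimulated genotypes did not overlap. With IgM, deleted replicate 1 lay among the control values and deleted replicate 3 far above them.

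IgM lowered Il10ra in control cells by 3.94 on the log2 scale (-3.94, SE 0.39, adjusted p = 0.000116), nearly the same in each replicate at -3.94, -3.86 and -4.02. This was called in all 24 alternatives. In deleted cells the change was -1.47 (SE 0.39, adjusted p = 0.0238), or -1.99 without deleted IgM replicate 3 (adjusted p = 0.000317). That call was lost without deleted IgM replicate 1 (-1.05, adjusted p = 0.0549) or replicate 2 (-1.35, adjusted p = 0.0694). It was also lost without unstimulated deleted replicate 1, 2 or 3, at adjusted p = 0.0628, 0.0591 and 0.0764, and the range over all alternatives was 0.000317 to 0.273.

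The Il10ra genotype difference without IgM was -1.54 (SE 0.39, adjusted p = 0.0696), with -1.87, -1.38 and -1.36 in the 3 replicates. The blocked fit gave an adjusted p of 0.0362 and the fit without deleted IgM replicate 3 one of 0.00185, while the fit without deleted IgM replicate 1 gave 0.0286; alternatives ranged from 0.00185 to 0.749. With IgM the difference was 0.94 (95% interval 0.08 to 1.80, adjusted p = 0.313). The interaction was 2.48 (SE 0.55) with an adjusted p of 0.326, and of 0.0502 without deleted IgM replicate 3. It was positive in every replicate, at 1.74, 2.25 and 3.43, and called in none of 23 alternatives. The other 2 Il10ra probe sets lay between 2.23 and 2.64 on all arrays.

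Ifngr1, the binding chain for interferon gamma, fell with IgM in both genotypes, with little difference between them. Unstimulated control cells read 10.07, 9.76 and 9.61 and unstimulated deleted cells 10.27, 9.84 and 9.88. Control cells with IgM read 9.01, 8.58 and 8.47, and deleted cells with IgM 9.53, 9.0 and 9.18. Every value with IgM lay below every unstimulated value. IgM changed Ifngr1 by -1.13 in control cells (SE 0.24, adjusted p = 0.00662), with -1.07, -1.18 and -1.14 in the replicates. This call held in 22 of 24 alternatives and was lost when all arrays of replicate 1 or 2 were left out (adjusted p up to 0.168). In deleted cells Ifngr1 changed by -0.76 (SE 0.24, adjusted p = 0.046), with -0.74, -0.84 and -0.70.

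The Ifngr1 call in deleted cells stood at the edge of the threshold and held in 5 of 24 alternatives, at adjusted p from 0.00262 to 0.339. Leaving out any 1 array other than deleted IgM replicate 1 or control IgM replicate 1 ended the call, at adjusted p of 0.0526 to 0.172. The blocked fit gave 0.00262. With IgM the genotype difference was 0.56 (95% interval 0.04 to 1.08, adjusted p = 0.323), higher in deleted cells in all 3 replicate pairs, and 0.0428 in the blocked fit within a range of 0.0428 to 0.707. The interaction was 0.37 (adjusted p = 0.951).

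Ifnar1, a chain of the receptor for type I interferons, was not called in any comparison. It read 8.67, 8.79 and 8.37 in control and 8.31, 8.96 and 8.14 in deleted cells without IgM. With IgM it read 8.35, 8.61 and 8.04 in control and 8.18, 8.79 and 9.76 in deleted cells, where replicate 3 stood apart. The genotype difference without IgM was -0.14 (95% interval -0.96 to 0.69). With IgM it was 0.57 (95% interval -0.25 to 1.40, adjusted p = 0.502), and 0.15 without deleted IgM replicate 3. The second Ifnar1 probe set read lower in deleted cells in both conditions, with differences of -0.71 and -0.57, also without a call (adjusted p = 0.542 and 0.527 over probe sets). The 2 probe sets thus disagreed in sign with IgM.

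**Figure D3:**
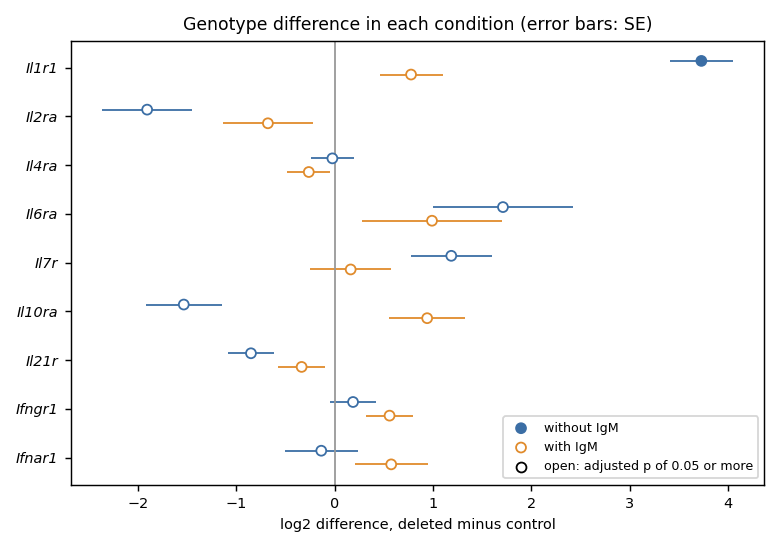
Log2 difference of deleted minus control cells for each gene, without IgM (blue) and with IgM (orange); error bars are SE and open symbols did not pass an adjusted p of 0.05. Il1r1 without IgM, at 3.73, is the filled symbol; Il2ra and Il10ra lie at -1.91 and -1.54.

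**Figure D4:**
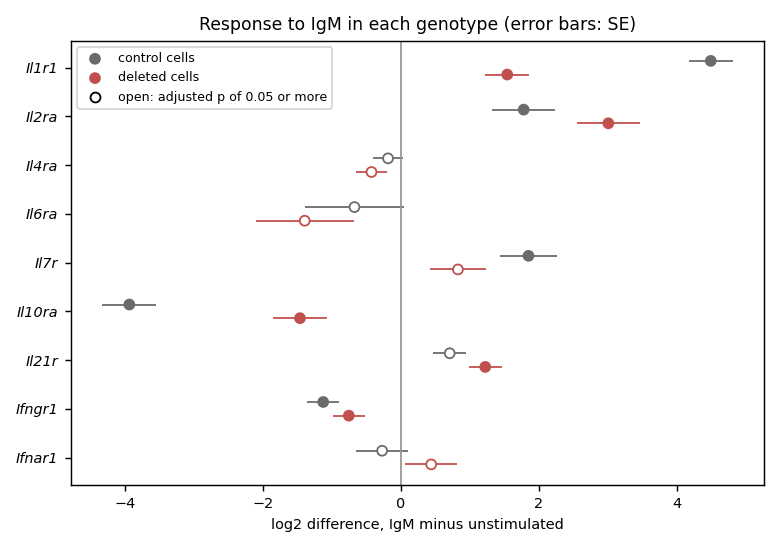
Log2 difference of IgM minus unstimulated for each gene in control (grey) and deleted (red) cells; error bars are SE and open symbols did not pass an adjusted p of 0.05. Il1r1 and Il2ra lie to the right and Il10ra and Ifngr1 to the left in both genotypes.

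Genes that moved most like each member were ranked by Pearson r over the 12 arrays and, for comparison, over the 11 arrays without deleted IgM replicate 3. The arrays fall into 4 groups, so r follows the group means and is a description only. For Il2ra the top 3 were Rel, an NF-kappaB subunit, at 0.99, Il21r at 0.99 and Nr4a3 at 0.98. For Il21r they were Il2ra, Ccnd2 and Zbtb10, and Il2ra was also first over 11 arrays. For Il1r1 they were Alg9 at 0.93, Cdca7l and Daam1, and over 11 arrays Serpinf1 came first at 0.96.

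Il10ra was most like Csnk1g3 at 0.98, Antxr2 and Klhl42, and over 11 arrays most like Zcchc18 at 0.99. Ifngr1 was most like Mpp1 at 0.99 in both rankings, followed by Itgb7 and Tor4a over 12 arrays. Il7r was most like Eya3, Bcr and Fndc3b, and Man1a2 came first over 11 arrays. Il6ra was most like Setd7 in both rankings, then Ahsa2 and Gsap. Ifnar1 was most like Ccdc117, Ctdspl2 and Sec23b. Il4ra had no close match, with Lmo7 at 0.78 ahead of Pou6f1 and BC052040.

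Other receptor chains were counted by family. Of all genes, 10.6% and 13.7% had an unadjusted p under 0.05 for genotype without and with IgM. For IgM in control and deleted cells these shares were 32.1% and 32.5%. In the same order the blocked fit called 6.89%, 6.76%, 35.5% and 36.7% of all genes. Of 26 type I chains, 11 were tested, and without IgM 1 was called for genotype, Il6st, the shared chain of the IL-6 family, which fell by 1.23 in deleted cells (adjusted p = 0.0403). With IgM limma called 0 of the 11 for genotype, 4 had an unadjusted p under 0.05, and the blocked fit called 3. In control cells IgM raised 1 of the 11, Il15ra, the binding chain for IL-15, by 1.39 (adjusted p = 0.0467), beside 20.7% of all genes called there. In deleted cells limma called 0 of the 11 for IgM, 0 had an unadjusted p under 0.05, and the blocked fit called 1. Among 3 tested of 8 type II chains, IgM lowered Ifngr2, the partner of Ifngr1, by 1.35 in control (-1.35, adjusted p = 0.00154) and 0.91 in deleted cells (-0.91, adjusted p = 0.0142). It also lowered Il10rb, the partner of Il10ra, in deleted cells (-0.60, adjusted p = 0.0417).

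Of 15 listed IL-1, IL-17 and TGF-beta receptor chains, 8 were tested, and 2 were called higher in deleted cells both without and with IgM. They were the paired chains of the IL-18 receptor, relatives of Il1r1. Il18r1 rose by 3.25 without IgM (SE 0.38, adjusted p = 0.000789) and 1.94 with it, and Il18rap by 2.42 (SE 0.31, adjusted p = 0.00151) and 2.21. IgM lowered Il18r1 in deleted cells by 2.02 (-2.02, adjusted p = 0.0043), opposite to Il1r1. NK cell markers, 9 of 10 measured, summed to 455 to 1970 in control and 1181 to 3311 in deleted cells without IgM, and to 328 to 1315 and 431 to 2186 with it; their part in the Il18r1 and Il18rap differences was not tested. IgM raised Il1r2, the decoy receptor for IL-1, by 1.75 in control and 1.69 in deleted cells (adjusted p = 0.031 and 0.0384). It lowered Sigirr, an inhibitor of the IL-1 receptor family, by 1.85 and 1.25 (-1.85 and -1.25, adjusted p = 0.000256 and 0.00265). In deleted cells it also lowered Il17ra (-0.75, adjusted p = 0.0298).

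Among the kinases and factors below the receptors, Jak1, Stat5a and Irf9 changed with IgM. Limma called 0 of 4 Jak kinases for genotype; at an unadjusted p under 0.05 the counts were 0 without and 3 with IgM, and in the blocked fit 0 and 1. IgM lowered Jak1, which serves most of the type I and II receptors here, by 1.11 in control and 0.81 in deleted cells (-1.11 and -0.81, adjusted p = 0.0102 and 0.0458). Of 7 tested Stat factors, with Irf9 counted among them, limma called 0 for genotype, 0 had an unadjusted p under 0.05, and the blocked fit called 1 without and 0 with IgM. Stat5a, which acts below the IL-2 and IL-7 receptors, rose by 1.35 and 1.21 (adjusted p = 0.011 and 0.0205), and Irf9, a factor of interferon signalling, fell in control cells (-1.03, adjusted p = 0.034).

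Of 18 tested inhibitors of receptor signalling, limma called 0 for genotype in either condition. At an unadjusted p under 0.05 there were 4 without and 3 with IgM, and the blocked fit called 3 and 3. In control cells IgM raised Cish, a target and inhibitor of Stat5, by 1.28 and lowered Pias1, Pias3 and Usp18 (-0.79, -1.38 and -1.73). In deleted cells it lowered Pias3 (-0.92). Of 6 tested IL-1 receptor adaptors, 1 was called for genotype with IgM. Irak3, which dampens IL-1 receptor signalling, was 1.93 higher in deleted cells with IgM (SE 0.31, adjusted p = 0.0116) and fell with IgM in both genotypes (-1.90 in control and -1.05 in deleted cells).

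Ligands of the members were mostly too low to test, and 4 of 15 passed. Il1b and Il6 were lower in deleted cells without IgM (-2.91 and -1.80, adjusted p = 0.000848 and 0.0386). With IgM, Il10 was lower in deleted cells (-2.01, adjusted p = 0.0422), a call that was lost without deleted IgM replicate 3 (adjusted p = 0.0888). In control cells IgM raised Il10 and Ifng by 1.48 and 1.40 and lowered Il1b (-1.83). In deleted cells limma called 0 of the 4 for IgM, 1 had an unadjusted p under 0.05, and the blocked fit called 1.

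Of 14 B cell genes known to respond to IL-4, IL-21 or gamma c signalling, 13 were tested. Limma called 0 for genotype without IgM, as did the blocked fit, and 2 had an unadjusted p under 0.05. With IgM Prdm1, the regulator of plasma cell formation, was 1.56 higher in deleted cells (adjusted p = 0.0191). IgM raised Ccnd2, a cyclin of early cell cycle entry, by 0.95 in control and 1.61 in deleted cells. It lowered Bcl2 (-1.73 and -1.06) and Pim2 (-1.98 and -1.68), both survival genes. Prdm1 rose with IgM in deleted cells by 2.32 (adjusted p = 0.000433), while control cells gave 0.29 (adjusted p = 0.554). Its interaction was 2.03 with an adjusted p of 0.188, so a difference between the responses was not shown. For several of these lists the blocked fit gave higher counts, as it did over all genes. For IgM in control cells, where it called 35.5% of all genes, it called 3 of 11 type I chains, 2 of 4 Jak kinases and 4 of 7 Stat factors. For IgM in deleted cells, beside 36.7% of all genes, it called 4 of 18 inhibitors. For genotype with IgM, beside 6.76%, it called 2 of 4 ligands and 3 of 13 response genes. For genotype without IgM, beside 6.89%, it called 2 of 11 type I chains, 1 of 6 adaptors and 3 of 4 ligands.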

How the data were processed

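Log2 expression values of 45101 probe sets on 12 arrays were used as deposited. Per the submitters' processing notes the tool was GCRMA, whose version is not given in the sources used here. Of these, the array annotation gave 34945 a single gene, 932 several and 9160 none, and 64 were controls. Symbols of 34741 were updated by gene identifier with a RefSeq table of GRCm38.p6. A gene was represented by its passing probe set with the highest mean.

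All 9293 genes were fitted with limma 3.58.1 in R 4.3.3, with 1 mean per group (lmFit, contrasts.fit, eBayes), two-sided. Arrays are few, which limits the precision. Arrays with the same replicate number deviated together from the means of their groups, with correlations of 0.55 to 0.78 and 0.17 to 0.80 between genotypes without and with IgM, and of 0.69 to 0.85 and 0.32 to 0.72 between conditions in control and deleted cells. All exceed 0.1, so the replicate numbers from the labels were taken to pair the arrays, and a blocked fit was an alternative.

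Summed marker levels add the linear values of a list's genes, without a filter. Genes named were all members, up to 4 called genes of each pathway list with the largest differences, the 3 genes most like each member, with predicted genes skipped, and Foxp1, Egr1, Nr4a1, Myc and Cd69. The members and all lists were chosen with earlier results of these data known. Promoter sequences came from a RefSeq table of GRCm38.p6, which held 9 of the 10 members; Il10ra had no entry.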

Additional observations from a re-analysis of the deposited data

Results flagged for a closer look

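The Il1r1 response to IgM differed between the genotypes by the interaction test. It was -2.95 in deleted minus control cells on the log2 scale, negative in 3 of 3 replicates, with an adjusted p of 0.0439 by limma with Benjamini-Hochberg adjustment. Of 23 alternatives 19 lost this call, and their adjusted p ranged from 0.0207 to 0.977 with the 4 that kept it.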

How the results depend on the processing

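Of 1071 recomputed differences of the members, 985 stayed on their side of the threshold, 65 lost a call and 21 gained one. The sign changed in 13, all of differences called in neither setting, of Il4ra, Il6ra, Il7r and Ifnar1. The number of the 9 members called for genotype without IgM was 1, and it became 5 with the replicate block, which pairs the arrays, and 2 with quantile normalization, with every passing probe set or with only the compared groups fitted. It ranged from 1 to 4 when arrays were left out, with 4 without deleted IgM replicate 3. For genotype with IgM it was 0, and 1 with the replicate block; leaving out arrays gave 0 to 0. For IgM in control cells it was 5, and 2 to 6 when arrays were left out, with 2 when all arrays of replicate 1 or of replicate 2 were left out. For IgM in deleted cells it was 5, but 3 with no filter on low values, 1 with only the compared groups fitted, and 0 to 5 when arrays were left out, with 0 without all arrays of replicate 2. The interaction count of 1, Il1r1, became 0 with no filter, with a filter at 6, with quantile normalization, with arrays centred on their medians, with a trended and robust eBayes, and under every left-out array except deleted IgM replicate 3, a range of 0 to 1. The causes were not tested. Over all genes, the replicate block raised the called genes from 265 to 640 and from 160 to 628 for genotype without and with IgM, from 1920 to 3299 and from 1765 to 3408 for IgM in control and deleted cells, and from 10 to 16 in the interaction. Without deleted IgM replicate 3 551 genes were called for genotype without IgM and 3356 for IgM in control cells; without all arrays of replicate 2 these were 30 and 290, and over all left-out arrays they ranged from 30 to 551 and from 290 to 3356. Genotype with IgM then ranged from 0 to 218, IgM in deleted cells from 190 to 2390 and the interaction from 0 to 16. With only the compared groups fitted, genotype with IgM gave 0 genes and IgM in deleted cells 540, and with no filter the genotype with IgM gave 98. A filter at 6 left 4 genes in the interaction, and testing every passing probe set gave 3483, 3260 and 19 called probe sets for IgM in control cells, IgM in deleted cells and the interaction. Beyond the member calls given with their blocked values, the replicate block changed no call of a member. With quantile normalization the 2 members called for genotype without IgM were 1 higher and 1 lower, and with it or with centred arrays the members called for IgM in deleted cells were 3 higher and 1 lower, beside 3 and 2 as reported. A signal near the floor of 2.23 limits the size of the Il1r1 differences, and 3 arrays a group limit all tests.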
